A study of Mus musculus with 3 samples.

Results

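The receptors through which mouse platelets sense ADP, ATP, thrombin, thromboxane, prostaglandins and adrenaline were examined as a set of 10 genes, taken by gene symbol and Entrez number: P2ry12, P2ry1, P2rx1, F2r, F2rl2, F2rl3, Tbxa2r, Ptger3, Ptgir and Adra2a. All 10 had a row among the 9822 genes of the deposited tables. The donors were male BALB/c mice 20 weeks old with the genotype Nxf1 wild type, and the material was blood platelets, the anucleate cells that megakaryocytes shed. RNA was sequenced in 3 libraries of this 1 group, replicates 1 to 3, each its own batch in the labels, so that sample and batch cannot be told apart. The design text calls the samples independent but does not say that each came from 1 mouse, so errors and p-values cover only how these samples vary, which could be technical.

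Platelet agonists act mostly through receptors coupled to heterotrimeric G proteins. Receptors of the Gq class raise calcium through phospholipase C, those of the Gi class lower cyclic AMP and sustain integrin activation, and those of the Gs class raise cyclic AMP and hold the platelet at rest. Thrombin receptors are activated by a cut in their own extracellular end, which unmasks a tethered ligand. Mouse platelets are known to signal to thrombin through PAR4 with PAR3 as its cofactor, whereas human platelets use PAR1 and PAR4.

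The libraries held 26974129, 25189231 and 26111636 counts of reads in replicates 1, 2 and 3, and 3 counts, the limit that a count of 0 allows, came to 0.111, 0.119 and 0.115 CPM (counts per 1000000 counts of the library). All 11 platelet and megakaryocyte markers were present, at a summed 33963, 35844 and 36377 CPM. Red cell markers, 7 of 9 in the tables, summed to 48710 CPM in replicate 1, against 5215 and 6800 CPM in replicates 2 and 3. Leukocyte markers other than the lysozyme gene Lyz2 (1387 ± 117 CPM; SD, n = 3), 16 of 25 in the tables, summed to 72.0, 79.5 and 124 CPM, endothelial markers, 4 of 6, to 89.0, 96.9 and 97.3 CPM, and none of the 4 mast cell and basophil markers was in the tables. In RNA of a whole preparation, fewer cells of a type and less RNA per cell cannot be told apart, and the part of other cells in the levels of the low receptor genes was not tested.

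The 10 receptor RNAs ranged from very abundant to barely counted. Set per 1000 bases of gene length, which allows levels of different genes to be compared, the order of mean levels was P2ry12, P2rx1, F2rl2, Ptgir, P2ry1, Ptger3, F2r, F2rl3, Tbxa2r and Adra2a. P2ry12 stood above 99.5% of all genes on that scale and Adra2a above 6.95%. All genes means the 9822 with rows, of which the lowest reached 0.238 CPM in its best library. Genes without a row are not in these shares or in the median. Of the 10 genes, 7 lay above the median of all genes (1.49 CPM per 1000 bases) and F2rl3, Tbxa2r and Adra2a lay below it. On its longer GENCODE M21 exon length Ptger3 fell below this median, which was computed on deposited lengths only. The median of the 10 was 11.7 CPM per 1000 bases. By the rule of 1 CPM or more in all 3 libraries 8 of 10 genes were detected, where 77.7% of all genes passed. At 1 CPM per 1000 bases in all 3 libraries 8 of 10 passed, against 54.4% of all genes, and at 5 CPM 6 of 10, against 40.7%, so how the receptors compared with genes in general depended on the minimum. The 2 below 1 CPM were Tbxa2r and Adra2a.

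**Figure D1:**
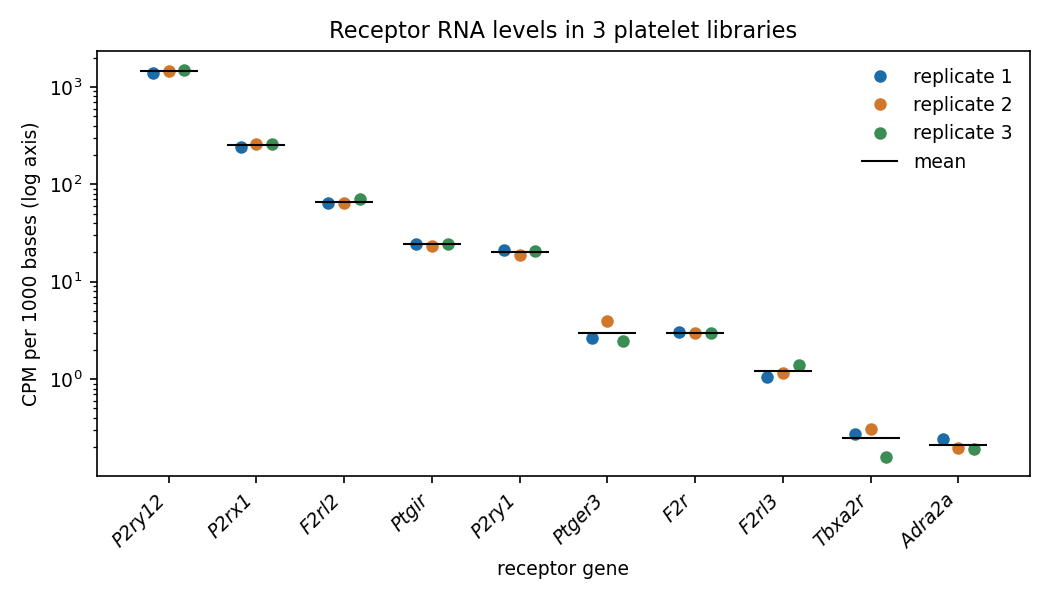
CPM per 1000 bases of gene length (log axis) of the 10 receptor genes in replicates 1, 2 and 3 (points) with the mean (bar), ordered by mean level. P2ry12 is highest, at 1449 CPM per 1000 bases, and Adra2a lowest, at 0.211.

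**Figure D2:**
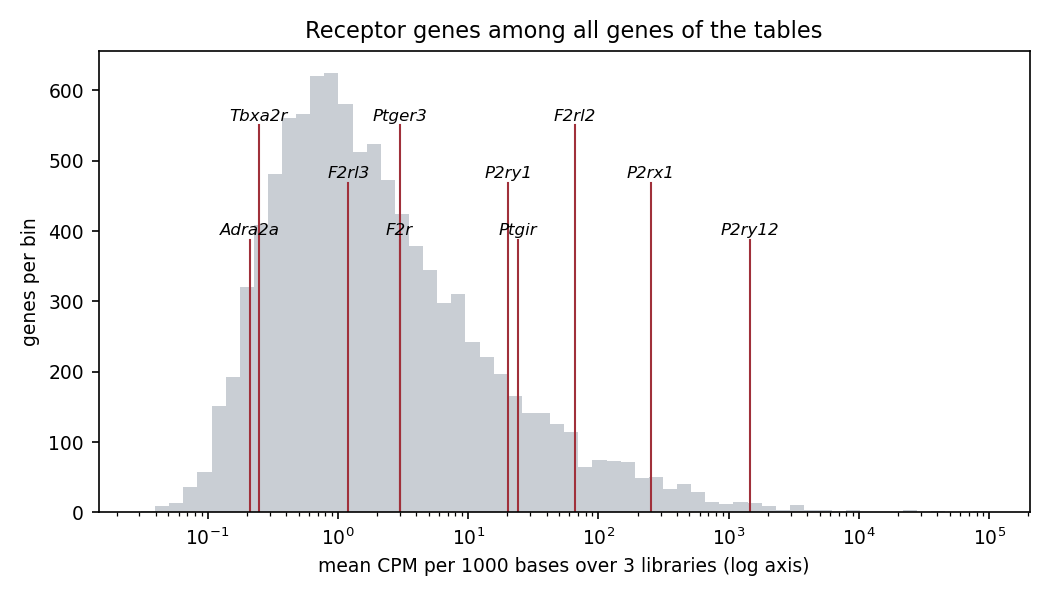
Number of genes in bins of mean CPM per 1000 bases over 3 libraries (log axis) for the 9822 genes of the tables, with each receptor gene at its own level (red lines, whose heights differ only to keep the names apart). P2ry12, P2rx1 and F2rl2 lie in the upper tail, above 93.8% of genes or more, and Tbxa2r and Adra2a in the lower one.

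The receptors for adenine nucleotides were the most abundant. P2ry12 (Entrez gene 70839, chromosome 3, 59216271 to 59262985, minus strand, RefSeq coordinates in GRCm38) encodes the Gi-coupled ADP receptor that clopidogrel blocks. It had 87291, 86808 and 90960 counts in replicates 1, 2 and 3, or 3236, 3446 and 3483 CPM, and its mean per 1000 bases was 1449 ± 57.1 CPM (SD, n = 3). P2ry12 ranked 34 among all genes by CPM and 53 per length. It alone made up 79.4%, 79.9% and 79.5% of the summed level per 1000 bases of the 10 receptor genes. Because P2ry12 is itself most of that sum, this share can move only a little between libraries.

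P2rx1 (Entrez gene 18436, chromosome 11, 72999056 to 73015200, plus strand) encodes the ATP-gated cation channel P2X1, the one ion channel of the set. It had 589, 626 and 639 CPM in replicates 1, 2 and 3, a mean of 253 ± 10.7 CPM per 1000 bases (SD, n = 3). Its level thus came next to that of P2ry12, and the gap between them had the smallest SD among the ratios computed here. P2ry12 exceeded P2rx1 by 2.52, 2.52 and 2.51 on the log2 scale of CPM per 1000 bases, a mean of 2.52 ± 0.01. These 2 genes had the most counts of the set, and counting error in a ratio shrinks as counts rise. Both genes were lowest in replicate 1 by CPM, the library with the most red cell RNA. With mitochondrially encoded and red cell genes left out of the library totals, P2ry12 was at 4597, 4798 and 4703 CPM in replicates 1, 2 and 3, still lowest in replicate 1. With TMM scaling, which uses the bulk of genes to set libraries on 1 scale, it was lowest in replicate 3 (3391, 3598 and 3184 CPM), so the order of the libraries depended on the scaling.

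P2ry1 (Entrez gene 18441, chromosome 3, 61002785 to 61008982, plus strand) encodes the Gq-coupled ADP receptor that starts the calcium rise and shape change. It was far lower than the other ADP receptor. P2ry1 had 82.7, 74.0 and 81.1 CPM in replicates 1, 2 and 3, a mean of 20.4 ± 1.20 CPM per 1000 bases (SD, n = 3), still above 87.1% of genes. Per 1000 bases P2ry12 exceeded P2ry1 by 6.02, 6.28 and 6.16 on the log2 scale (mean 6.15 ± 0.13) and P2rx1 exceeded it by 3.64 ± 0.13. These gaps were many times their spread between libraries. With 3 libraries the smallest p that an exact sign-flip test (two-sided) allows is 0.25, so ratios of genes are given with their SD and no call.

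Of 12 further genes of the P2Y and P2X receptor families in a fixed list, 3 had rows in the tables, all far below P2ry12. P2ry13, a close relative of P2ry12 and its neighbour on chromosome 3 (59207892 to 59210882), was at 4.39 ± 0.175 CPM, or 1.73 CPM per 1000 bases. P2ry10 was at 1.64 ± 0.422 CPM, and P2rx6 had 14, 15 and 33 counts. P2ry14, another receptor gene of this cluster, had no row in the tables. P2ry12 lies on the opposite strand within the span of Med12l (chromosome 3, 59005825 to 59318682 in GENCODE M21), and their exons share 9 bases. The strand setting of the counting is not given in the sources used here, so reads of the pair in those bases could not be separated by strand. P2ry12 was at 1449 CPM per 1000 bases, against 22.2 CPM per 1000 bases (227 ± 17.9 CPM) for Med12l. For P2ry1 the antisense gene Gm37035 (chromosome 3, 61001639 to 61003786) covers 992 of its exonic bases; it had no row in the tables, and reads of the pair cannot be told apart without strand.

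The 3 thrombin receptor genes were uneven, and the one for the signalling receptor was the lowest. F2rl2 (Entrez gene 14064, chromosome 13, 95696920 to 95702768, plus strand) encodes PAR3, which in mouse platelets binds thrombin and presents it to PAR4. It had 4244, 3986 and 4528 counts in replicates 1, 2 and 3, or 157, 158 and 173 CPM, and a mean of 66.2 ± 3.66 CPM per 1000 bases (SD, n = 3). F2rl2 was therefore the third most abundant RNA of the set, above 93.8% of all genes per length.

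F2rl3 (Entrez gene 14065, chromosome 8, 72761659 to 72763898, plus strand) encodes PAR4, the receptor through which thrombin signals in mouse platelets. It had only 50, 51 and 65 counts, or 1.85, 2.02 and 2.49 CPM in replicates 1, 2 and 3, and a mean of 1.20 ± 0.187 CPM per 1000 bases (SD, n = 3). The exact Poisson 95% intervals of these values, which cover counting error only, ran from 1.38 to 2.44, from 1.51 to 2.66 and from 1.92 to 3.17 CPM, so the libraries did not differ beyond counting error. Per 1000 bases F2rl2 exceeded F2rl3 by 5.92, 5.80 and 5.64 on the log2 scale, a ratio of 55.3 (mean log2 5.79 ± 0.14). The level of F2rl3 was above 45.3% of all genes, near the middle of the tables.

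F2r (Entrez gene 14062, chromosome 13, 95601780 to 95618466, minus strand) encodes PAR1, the thrombin receptor of human platelets and of endothelium. It had 268, 246 and 254 counts, or 9.94, 9.77 and 9.73 CPM in replicates 1, 2 and 3. The coefficient of variation was 1.13% (8.36% with TMM scaling). The counting intervals, 8.78 to 11.2, 8.58 to 11.1 and 8.57 to 11.0 CPM, were far wider than the differences between libraries. The level of F2r is thus not known as closely as 1.13% would imply. Per 1000 bases F2r, at 2.98 ± 0.0336 CPM, exceeded F2rl3 by 1.52, 1.37 and 1.06 on the log2 scale, a mean of 1.32 ± 0.23, and the ranges of the pair over the 3 libraries did not overlap. Beside this level, the endothelial markers Tie1 and Plvap were at 54.7 ± 3.73 and 29.2 ± 0.600 CPM, Kdr was at 8.64 ± 1.36 CPM, Cdh5 had 48, 51 and 42 counts, and Tek and Emcn had no row; the part of endothelial RNA in the level of F2r was not tested. The remaining family member F2rl1, which encodes the trypsin-sensitive PAR2, had no row in the tables.

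F2r and F2rl2 lie in 1 cluster on chromosome 13, and F2rl2 sits on the opposite strand within the span of Iqgap2 (95627177 to 95891922 in GENCODE M21). The exons of Iqgap2 and F2rl2 share 0 bases. F2rl2 was at 66.2 CPM per 1000 bases, against 0.191 CPM per 1000 bases (30, 31 and 25 counts) for Iqgap2, which encodes a cytoskeletal scaffold protein. High F2rl2 counts thus stood beside few reads on the exons of its host gene.

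The promoter windows of P2ry12, F2rl2 and F2rl3, taken from RefSeq for GRCm38.p6, are shown because these genes mark the top of the set and the extremes of the thrombin receptors. Each window runs from 250 bases before to 50 bases after the start of the gene, 5′ to 3′ on the strand of the gene, and capitals mark matches to AGATAA or TGATAA, the core letters bound by GATA factors, on either strand. The windows are chr3:59262936-59263235 (minus strand) for P2ry12, chr13:95696670-95696969 (plus strand) for F2rl2 and chr8:72761409-72761708 (plus strand) for F2rl3.
P2ry12: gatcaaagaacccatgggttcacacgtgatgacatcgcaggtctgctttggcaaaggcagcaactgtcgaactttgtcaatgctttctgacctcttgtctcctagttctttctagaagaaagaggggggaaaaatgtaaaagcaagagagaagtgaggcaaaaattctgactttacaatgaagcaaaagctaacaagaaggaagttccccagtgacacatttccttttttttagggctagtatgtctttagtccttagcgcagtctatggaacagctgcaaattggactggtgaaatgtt
F2rl2: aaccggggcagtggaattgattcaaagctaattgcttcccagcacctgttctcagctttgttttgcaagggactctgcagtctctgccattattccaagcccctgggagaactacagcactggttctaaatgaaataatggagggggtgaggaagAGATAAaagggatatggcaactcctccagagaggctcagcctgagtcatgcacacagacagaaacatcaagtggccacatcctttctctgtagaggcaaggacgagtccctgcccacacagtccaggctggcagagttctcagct
F2rl3: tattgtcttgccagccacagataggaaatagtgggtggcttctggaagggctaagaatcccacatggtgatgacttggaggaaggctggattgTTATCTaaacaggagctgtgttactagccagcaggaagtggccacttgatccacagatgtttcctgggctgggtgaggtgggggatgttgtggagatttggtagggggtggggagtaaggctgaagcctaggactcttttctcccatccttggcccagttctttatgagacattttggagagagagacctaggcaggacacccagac
F2rl2 holds AGATAA at base -95 from the start, directly after GGAAG, the core letters of ETS factors, at -100, without overlap. F2rl3 holds the same letters on the minus strand at -157; P2rx1 holds them on the minus strand of its window, which is set on a start 89 bases inside the gene. These 3 were the receptor genes with a GATA match out of 10, and such a match was found in 18.6% of 32851 windows of all genes. GGAAG was found in 7 of 10 receptor genes and in 71.4% of all windows. TGAGTCA, the core of the NFE2 and AP-1 site, was found in F2r and F2rl2 and in 5.20% of all windows, and TGTGGT, the letters of RUNX factors, in F2r and in 16.8% of all windows. High and low receptor genes both held GATA letters, and P2ry12, the highest, held none in this window. A match is a stretch of letters and not a binding site that was shown.

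The prostanoid receptors ran from a fairly abundant inhibitory receptor to a barely counted stimulatory one. Ptgir (Entrez gene 19222, chromosome 7, 16906490 to 16910905, plus strand) encodes the Gs-coupled prostacyclin receptor, by which vessel walls quiet platelets. It had 82.2, 77.7 and 81.9 CPM in replicates 1, 2 and 3, a mean of 24.2 ± 0.756 CPM per 1000 bases (SD, n = 3). Ptgir was close to P2ry1: per 1000 bases it was higher by 0.21, 0.29 and 0.24 on the log2 scale (mean 0.25 ± 0.04). That small difference rested on the division by gene length, since by CPM alone the mean was 0.03, less than the spread between libraries.

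Ptger3 (Entrez gene 19218, chromosome 3, 157566821 to 157644758, plus strand) encodes EP3, the Gi-coupled prostaglandin E receptor that potentiates aggregation. It had 143, 199 and 130 counts, or 5.30, 7.90 and 4.98 CPM in replicates 1, 2 and 3, with counting intervals of 4.47 to 6.24, 6.84 to 9.08 and 4.16 to 5.91 CPM. Replicate 2 was thus higher than both other libraries beyond counting error. The edgeR quasi-likelihood test of spread, fitted across 8289 genes, gave Ptger3 a Benjamini-Hochberg adjusted p of 0.982, so it was not called as varying more than genes of like level. Among monocyte and macrophage markers, 4 of 6 in the tables with Cd14 and Cx3cr1 without a row, Lyz2 was also highest in replicate 2, at 1286, 1515 and 1361 CPM in replicates 1, 2 and 3. The other 3 were not: Mpeg1 was lowest there (8.53, 5.52 and 9.08 CPM), Csf1r had 45, 34 and 29 counts and Adgre1 12, 13 and 18. The part of such cells in the level of Ptger3 was not tested.

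Per 1000 bases of the deposited length Ptger3, at 3.00 ± 0.794 CPM, and F2r did not differ beyond their spread (log2 ratio -0.02 ± 0.37). The deposited length of Ptger3 was 2018 bases, whereas its exons sum to 5688 bases in GENCODE M21. On that length, an alternative added after seeing the data, it was at 1.07 ± 0.282 CPM per 1000 bases. The log2 ratio to F2r on GENCODE lengths was -1.50. The level of 1.07 was below the median of all genes on deposited lengths, and no such median was computed on GENCODE lengths. The place of Ptger3 in the order of levels therefore rests on its length.

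Tbxa2r (Entrez gene 21390, chromosome 10, 81328268 to 81335174, plus strand) encodes TP, the Gq-coupled and G13-coupled receptor for thromboxane A2. It had 14, 15 and 8 counts, or 0.519, 0.595 and 0.306 CPM in replicates 1, 2 and 3, and a mean of 0.247 ± 0.0781 CPM per 1000 bases (SD, n = 3). The counting intervals were 0.284 to 0.871, 0.333 to 0.982 and 0.132 to 0.604 CPM, so the gene was above the limit for a count of 0 in each library and the libraries were not distinguishable at this depth. Per 1000 bases Ptgir exceeded Tbxa2r by 6.51, 6.23 and 7.27 on the log2 scale (mean 6.67 ± 0.54), and Ptger3 exceeded it by 3.63 ± 0.34, or by 2.13 on GENCODE lengths. The opposing prostacyclin and thromboxane receptors thus stood far apart in RNA level in every library.

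Of 6 further prostanoid receptor genes, only Ptger1, which encodes EP1, had a row. It had 47, 36 and 89 counts, or 1.74, 1.43 and 3.41 CPM in replicates 1, 2 and 3, highest in replicate 3. Marker sums of several leukocytes were also highest there: B cell markers, 5 of 5 in the tables, at 35.6, 37.3 and 68.4 CPM, T and NK cell markers, 5 of 6, at 15.2, 18.6 and 25.3 CPM, and neutrophil markers, 3 of 5, at 10.6, 16.2 and 19.6 CPM in replicates 1, 2 and 3. Replicate 3 also had the highest median count per gene over all genes, 120 against 96 and 88 in replicates 1 and 2. The part of leukocytes in the level of Ptger1 was not tested. The genes for the other Gs-coupled prostaglandin receptors, Ptger2, Ptger4 and Ptgdr, had no row in the tables.

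Adra2a (Entrez gene 11551, chromosome 19, 54045259 to 54048982, plus strand) encodes the Gi-coupled alpha 2A adrenergic receptor for adrenaline. It had 25, 19 and 19 counts, or 0.927, 0.754 and 0.728 CPM in replicates 1, 2 and 3, and a mean of 0.211 ± 0.0284 CPM per 1000 bases (SD, n = 3), the lowest of the set. Its level did not differ from that of Tbxa2r beyond the spread between libraries (log2 ratio of Tbxa2r to Adra2a 0.18 ± 0.45). None of 8 further adrenergic receptor genes, alpha or beta, had a row.

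Among the 9 pairs of neighbours in the order of levels, the ranges of the 3 libraries did not overlap in 7. The exceptions were Ptger3 with F2r, and Tbxa2r with Adra2a. The pairs were set by the order of these same mean levels, so the sign of a mean ratio was largely given in advance. The same count was not made for other genes. On deposited lengths the widest steps between neighbours were from P2ry1 to Ptger3, at 2.79 ± 0.44 on the log2 scale of CPM per 1000 bases, from P2ry12 to P2rx1, at 2.52 ± 0.01, and from F2rl3 to Tbxa2r, at 2.33 ± 0.71. The set thus fell into 5 genes at 20.4 CPM per 1000 bases or more and 5 at 3.00 or less.

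**Figure D3:**
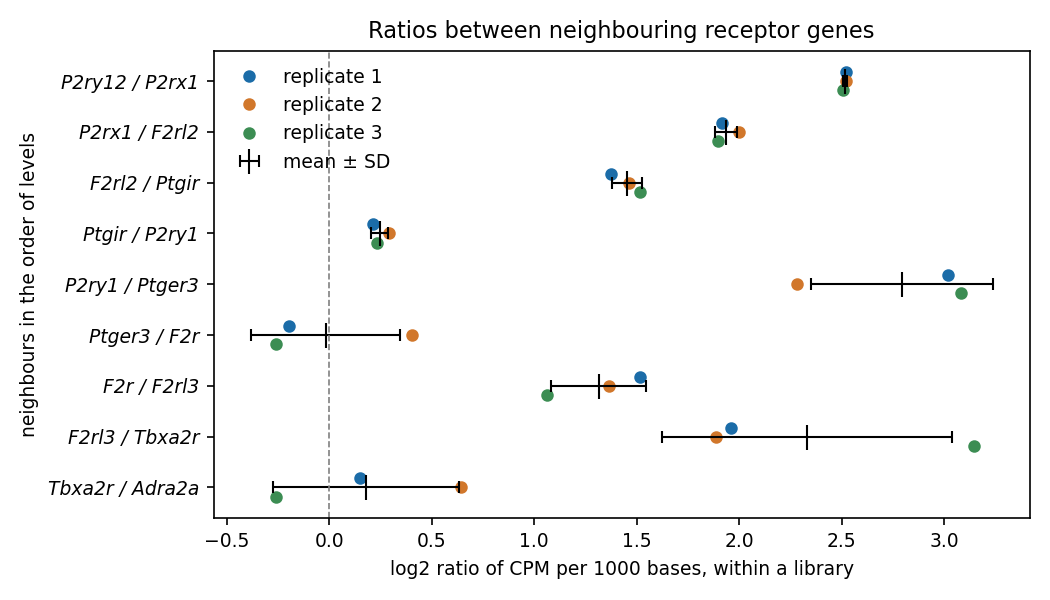
Log2 ratio of CPM per 1000 bases between neighbours in the order of levels, in replicates 1, 2 and 3 (points) with mean ± SD (bars). All points lie right of 0 except for Ptger3 to F2r and for Tbxa2r to Adra2a, whose points lie on both sides. The order was set by the means of these same libraries, so a place right of 0 is largely given in advance.

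Grouped by the G protein class each receptor is known to use first, the Gi-coupled genes (P2ry12, Ptger3 and Adra2a) summed to 1453 ± 57.3 CPM per 1000 bases, nearly all of it P2ry12. The Gq-coupled genes (P2ry1, Tbxa2r, F2r and F2rl3) summed to 24.8 ± 1.19, of which P2ry1 made up 82.1 ± 0.962%, and the single Gs-coupled gene Ptgir was at 24.2 ± 0.756 CPM per 1000 bases (SD, n = 3). F2rl2, at 66.2 CPM per 1000 bases, and P2rx1, at 253, were placed in no class. The class sums are of RNA and give no count of receptors on the cell surface.

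Agreement between libraries was close for the abundant receptors. On plain totals, 5 of the 10 genes had counting intervals that shared a value across the 3 libraries (F2r, F2rl3, Tbxa2r, Ptgir and Adra2a). For the other 5 (P2ry12, P2ry1, P2rx1, F2rl2 and Ptger3) the libraries differed beyond counting error. With TMM scaling the split was also 5 and 5, but F2rl2 shared a value and Ptgir did not. On totals without the 10 highest genes P2ry1 joined the 5 named first. Such intervals narrow as counts rise, so genes with many counts fail to share a value at small differences. Tbxa2r, with 14, 15 and 8 counts in replicates 1, 2 and 3, shared a value at a coefficient of variation of 31.6%. The same count was not made over all genes, so the split cannot be set against genes in general. Coefficients of variation of CPM on plain totals were 3.94% for P2ry12, 4.22% for P2rx1, 5.54% for F2rl2 and 5.86% for P2ry1, against 26.4% for Ptger3. With TMM scaling they were 6.11% for P2ry12, 5.64% for P2rx1, 2.32% for F2rl2 and 8.19% for P2ry1, against 31.3% for Ptger3, so the order among the abundant genes depended on the scaling. The edgeR quasi-likelihood test of spread with Benjamini-Hochberg adjustment covered the 8 receptor genes that averaged at least 1 CPM. Of these, 0 were called more variable than the trend, 0 had an unadjusted p under 0.05, and 0 were dispersion outliers in DESeq2. Of all 8289 genes tested, edgeR called 19 (0.229%), 356 had an unadjusted p under 0.05 and 49 were outliers in DESeq2. At such low shares, 0 of 8 does not set the receptor genes apart from genes in general. Tbxa2r and Adra2a fell under the minimum of that fit. In simulated data for this test none of 50 genes changed by a factor of 2 in 1 library was called and 27 of 50 changed by a factor of 4 were, so small differences between libraries could not be detected.

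**Figure D4:**
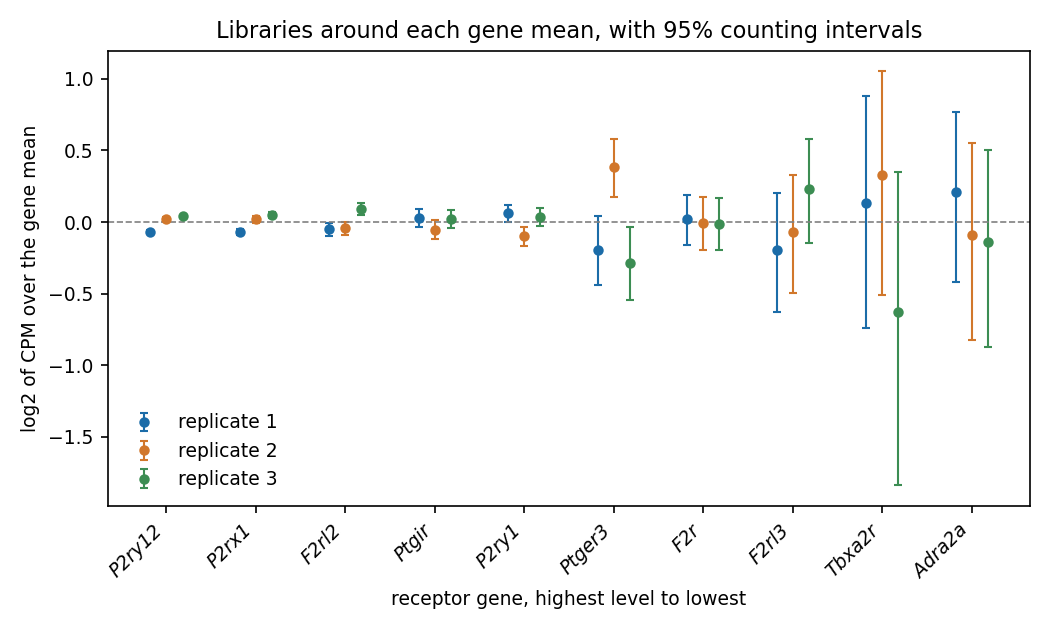
Log2 of CPM in replicates 1, 2 and 3 over the mean of each gene, with exact Poisson 95% intervals that cover counting error only, ordered from highest to lowest level. Intervals are narrow for P2ry12 and P2rx1 and widest for Tbxa2r, which had 8 to 15 counts, and replicate 2 stands above the others for Ptger3.

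The genes whose levels over the 3 libraries were most like those of 4 receptor genes were sought by the root mean square difference of log2 CPM per 1000 bases, a measure that rests on 3 libraries. For P2ry12 they were Mmd (0.0427) and Nptn, which encodes the adhesion molecule neuroplastin (0.0488). For P2rx1 they were Map1lc3b, an autophagy gene (0.0339), and Tprgl (0.0351), and for F2rl2 Cdk2ap2 (0.0132) and Atp5b, a subunit of ATP synthase (0.0362). For F2rl3 they were Taf2, a subunit of the general transcription factor TFIID (0.0272), and Anapc1, a subunit of the anaphase-promoting complex (0.0298). Likeness of level says nothing of shared function or control.

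Genes on either side of the receptors were counted from fixed lists, by the same minimum of 1 CPM in all 3 libraries. Of 52 other receptor genes, 12 had rows, 7 were detected and the median of the 12 was 0.584 CPM per 1000 bases. The highest of them, the adenosine receptor gene Adora3 and P2ry13, were at 2.35 ± 0.411 and 1.73 ± 0.0693 CPM per 1000 bases. By their means on deposited lengths 7 of the 10 receptor genes stood above all 12 of them, and F2rl3, Tbxa2r and Adra2a did not. On its GENCODE length Ptger3, at 1.07, was below these values of Adora3 and P2ry13, whose levels were not computed on GENCODE lengths.

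Among G alpha subunit genes 8 of 12 had rows and 7 were detected. Gnas, the alpha subunit of Gs, was at 601 ± 17.5 CPM per 1000 bases and Gnai2, of Gi, at 323 ± 14.8 (SD, n = 3). P2ry12 RNA, at 1449 CPM per 1000 bases, was thus higher per length than that of Gnai2, through which it signals.

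Effector genes were detected for 17 of 23, all 17 that had rows. They were led by Arhgef12, an exchange factor activated by G13, at 45.9 ± 3.74 CPM per 1000 bases and the IP3 receptor gene Itpr2 at 20.0 ± 1.78. For desensitisation and traffic 9 of 10 genes had rows and were detected, led by the arrestin gene Arrb2 at 226 ± 7.11 and the receptor kinase gene Grk5 at 125 ± 2.50 CPM per 1000 bases. Of 12 genes of ligand supply and removal 7 had rows and 5 were detected, led by the thromboxane synthase gene Tbxas1 and the cyclooxygenase gene Ptgs1. The thromboxane receptor gene Tbxa2r was at 0.247 ± 0.0781 CPM per 1000 bases, against 144 ± 9.87 for Tbxas1 and 63.4 ± 7.14 for Ptgs1 (SD, n = 3). RNA for the receptor was thus far scarcer than RNA for making its ligand.

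**Figure D5:**
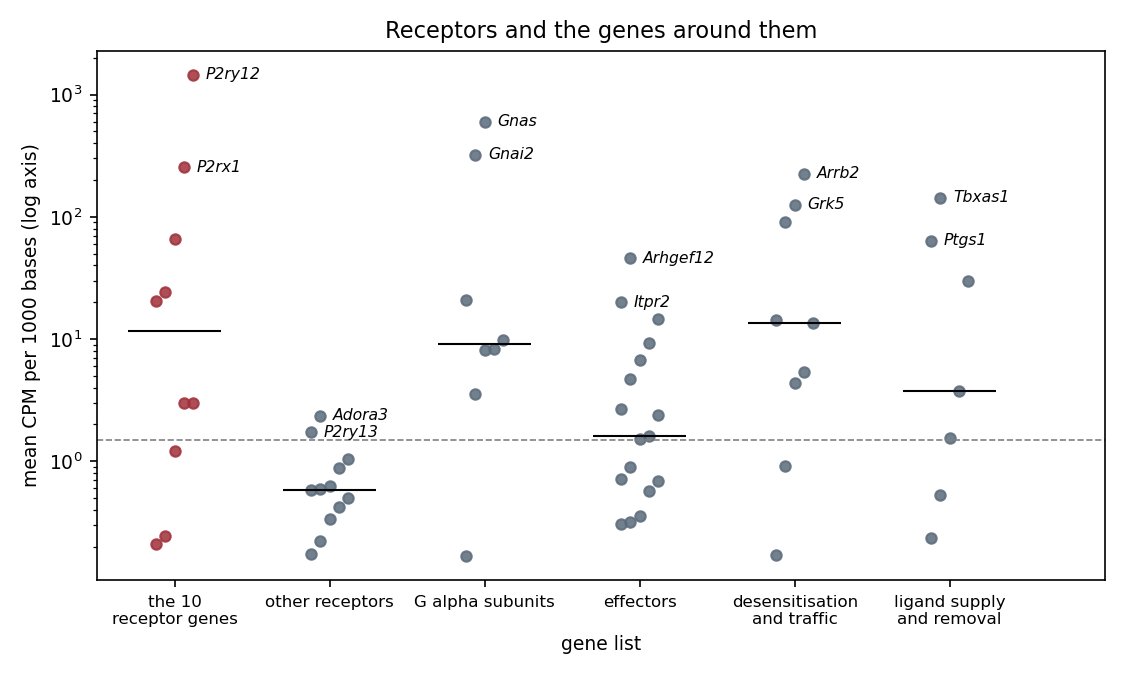
Mean CPM per 1000 bases over 3 libraries (log axis) of the 10 receptor genes and of the genes with rows in 5 fixed lists, with the median of each list (bar), the names of the 2 highest genes, and the median of all genes, 1.49 (dashed line). The 10 receptor genes span the widest range, from 0.211 to 1449, and the other receptors lie at 2.35 or lower.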

How the data were processed

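RNA of purified platelets was sequenced in 3 libraries of 1 group. The labels' protocols name a Norgen kit for RNA and TruSeq RNA version 2 chemistry for libraries. The deposited tables hold raw read counts per Entrez gene and a gene length; the authors' annotation, strand and multi-mapping settings and the rule that left 9822 genes were not given in the sources at hand. Per the submitters' processing notes, CASAVA 1.8.2, Subread, featureCounts and edgeR 3.11.5 were used, with build mm10.

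From these counts, CPM on the total of each table, CPM per 1000 bases of the deposited length, means and SDs were computed. The lowest gene of the tables reached 0.238 CPM in its best library. Symbols came from RefSeq for GRCm38.p6 (9636 genes matched), as did coordinates; overlaps came from GENCODE M21. The spread between libraries was tested with edgeR 4.0.16 (limma 3.58.1, R 4.3.3): an intercept was fitted with TMM scaling to the 8289 genes averaging at least 1 CPM, and each dispersion was compared with the trend by a one-sided F test and Benjamini-Hochberg adjusted; DESeq2 1.42.0 was an alternative. The spread test was tested on simulated data with 200 genes changed, over 8284 genes. Other steps used Python 3.11.15, pandas 2.3.3, NumPy 2.4.6, SciPy 1.17.1 and matplotlib 3.10.9.

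The members, lists and tests were chosen with earlier results of these data known. Named genes were all members, the 2 highest of each list per length and genes overlapping a member. Also named were listed receptors of the same families and the 2 genes nearest in level to P2ry12, P2rx1, F2rl2 and F2rl3. Single marker genes of other cells were chosen for naming after their values were seen. Alternatives were other totals and scalings, detection minimums, filters, lengths, a prior count of 2 and leaving out each replicate.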

Additional observations from a re-analysis of the deposited data

How the results depend on the processing

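The summed level of the 10 receptor genes was 4349 ± 163 CPM (SD, n = 3), 4352 with TMM scaling and 4285 to 4440 with 1 replicate left out. It was 7664 CPM on totals without the 10 highest genes and 6031 on totals without mitochondrially encoded and red cell genes, both of which raise every gene by construction. The count of detected genes was 9 at 0.5 CPM (93.0% of all genes) and 6 at 5 CPM (40.7%). It was 8 at a mean of 1 CPM (84.4%) and at 1 CPM per 1000 bases (54.4%). Totals without the 10 highest genes gave 9, where Adra2a passed, but the share of all genes was not computed there. The count was 8 under the other alternatives run, including each left-out replicate, also without that share. The count of neighbours whose ranges did not overlap, 7 of 9, was 6 without division by gene length and 7 to 8 with a replicate left out. Of the log2 ratios, Ptger3 to F2r (-0.02) ran from -0.23 to 0.10 with a replicate left out, positive without replicate 1 (0.07) or 3 (0.10). Tbxa2r to Adra2a (0.18) was -0.81 without division by length and ran from -0.056, without replicate 2, to 0.40 with a replicate left out; both main values were within their spread. No receptor gene was called more variable by edgeR or DESeq2 under any alternative run. Over all genes, 19 were called, against 11 with plain totals, 11 at a minimum mean of 5 CPM, 49 by DESeq2, 0 with edgeR's robust prior (396 at an unadjusted p under 0.05), and 1, 29 and 32 without replicate 1, 2 and 3. The unadjusted p of Ptger3, 0.0545, ran from 0.0135 to 0.465 and its adjusted p from 0.809 to 0.995. No paired analysis was possible because there was 1 group. Depth limited Tbxa2r and Adra2a, at 8 to 25 counts a library.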
